A study of Mus musculus with 9 samples.

Results

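The genes of ion and water transport in colonocytes, the absorptive cells of the colon, were taken as the table rows whose symbol is 1 of 10 names. The names are Slc26a3, Aqp8, Car1, Car4, Slc9a3, Scnn1a, Scnn1b, Scnn1g, Cftr and Slc12a2. All 10 were among the 54146 genes listed, and all 10 passed the filter on low values. They were measured by RNA-seq of colonic mucosa from C57BL/6J mice at 15 wk of age. All 9 mice carried ApcMin/+, 1 mutant copy of the tumor suppressor gene Apc. In 5 of them (2 females and 3 males) this was the only stated allele, and 4 (3 females and 1 male) were ApcMin/+; p16cis/cis, with an engineered sequence on both copies of p16 that draws DNA methylation to its promoter. The samples are labelled colonic mucosa, the study's methods speak of colonic crypts, and the piece of colon sampled is not given. The p16cis allele is carried in the germ line, so it is not limited to the epithelium.

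The colon takes salt and water out of its contents. In electroneutral absorption, an exchanger that brings in Na+ and puts out H+ works beside one that brings in Cl- and puts out HCO3-, and carbonic anhydrases supply both H+ and HCO3- from CO2. In the distal colon the epithelial Na+ channel ENaC, controlled by aldosterone, takes up the remaining Na+, while crypt cells secrete Cl- through the channel CFTR after loading it with the basolateral cotransporter NKCC1.

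The libraries held 13523500 to 17885918 reads on genes. The mitochondrial share of those reads was 12.05% ± 2.87 (SD, n = 5; 8.74% to 15.6%) in ApcMin/+ mice and 24.2% ± 4.41 (n = 4; 19.3% to 29.8%) in ApcMin/+; p16cis/cis mice, with no overlap (p = 0.00794 by two-sided exact permutation, the lowest value possible with 126 arrangements). Genotype took up 78.1% of its variance, so mitochondrial share and genotype cannot be told apart in a joint fit. Epithelial markers summed to 186196 to 270629 normalized counts in ApcMin/+ mice and 185386 to 249731 in ApcMin/+; p16cis/cis mice. Smooth muscle markers summed to at most 323 in any mouse. Immune markers summed to 133 to 1364 and 241 to 349, and 2 of the 6 tested were called lower. Surface colonocyte markers other than the transport genes summed to 172265 to 325598 in ApcMin/+ mice and 229192 to 366815 in ApcMin/+; p16cis/cis mice, and 1 of 6, Emp1, was called lower. Such sums follow the most abundant genes. Gene by gene, 4 of these 6 had a negative log2 fold change and 2 a positive one, with a median of -0.26. Crypt base and cycling markers summed to 6445 to 10925 and 9993 to 13403, and 1 of 8, Mki67, was called higher. Of these 8, 2 had a negative log2 fold change and 6 a positive one, with a median of 0.20. No marker of these lists was at 0 in all 9 mice. The part that these cells play in the results below was not tested.

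Slc26a3 and Slc9a3, the apical Cl- and Na+ exchangers, were the transport genes of the 10 that were lower in ApcMin/+; p16cis/cis mice. Slc26a3 was 2.35-fold and Slc9a3 2.91-fold lower by the fitted log2 difference. Cftr, Slc12a2, Car4 and Scnn1a, which differed by at most 1.34-fold, did not pass the test. Among all 14410 genes tested by limma with Benjamini-Hochberg adjustment (adjusted p under 0.05), 8.75% were called lower and 8.14% higher. Of the 10 transport genes 2 were called lower and 0 higher, and edgeR's quasi-likelihood test gave the same counts. At an unadjusted p under 0.05, 5 were lower and 0 higher, against 17.0% and 16.2% of all genes tested. With the study's further condition of a fold over 2, 1.64% of all genes were lower and 1.83% higher, and the same 2 transport genes were lower. The study set this condition on DESeq2 results with its own adjustment, so these limma calls are not the study's list. A negative log2 fold change was found for 9 of the 10 genes. Its median was -0.64, against -0.00 over all genes tested. Since this is bulk tissue, fewer cells of a type and less RNA per cell cannot be told apart.

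**Figure D1:**
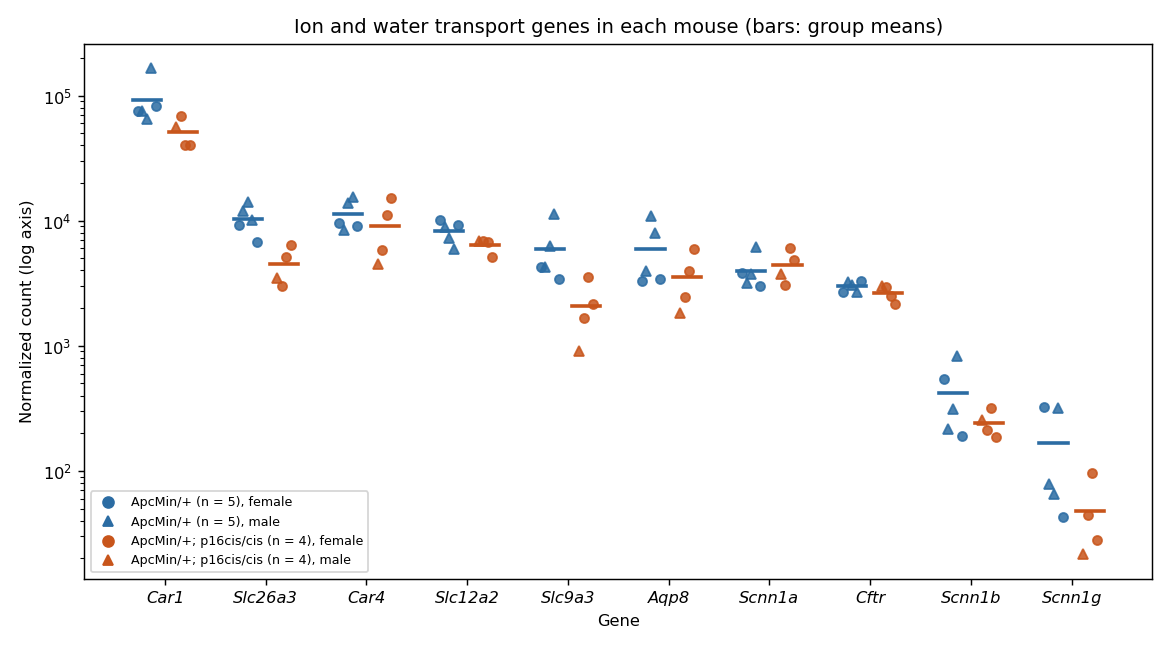
Normalized counts of the 10 transport genes (y axis, log scale) in each of 9 mice, ApcMin/+ in blue (n = 5) and ApcMin/+; p16cis/cis in orange (n = 4), with circles for females, triangles for males and bars for group means. Slc26a3 is the gene whose genotypes do not overlap, with 6724 to 14071 in ApcMin/+ mice and 2981 to 6399 in ApcMin/+; p16cis/cis mice.

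Slc26a3 (ENSMUSG00000001225.12, chr12:31390871-31473917, plus strand, GRCm38) encodes DRA, the apical exchanger that takes up Cl- for HCO3-, whose loss in people causes congenital chloride diarrhea. Its normalized counts were 9191, 11865, 14071, 10028 and 6724 in ApcMin/+ replicates 1 to 5. They were 3488, 2981, 5088 and 6399 in ApcMin/+; p16cis/cis replicates 1 to 4. Every ApcMin/+ mouse was above every ApcMin/+; p16cis/cis mouse, although the nearest values, 6724 and 6399, were close. The difference on the log2 scale was -1.23 with a standard error of 0.24 (limma, adjusted p = 0.00848). Genes with such a separation in the same direction were 8.95% of all genes tested, and Slc26a3 was the 1 of the 10 transport genes that showed it. Leaving out each mouse in turn gave -1.42 to -1.06, with an adjusted p of at most 0.0306.

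Slc9a3 (ENSMUSG00000036123.8, chr13:74121457-74169442, plus strand) encodes NHE3, the apical Na+/H+ exchanger of absorptive cells. Its normalized counts were 4262, 4284, 6245, 11253 and 3392 in the ApcMin/+ mice and 908, 1657, 3537 and 2141 in the ApcMin/+; p16cis/cis mice. The genotypes overlapped through a single pair of mice, ApcMin/+ replicate 5 (3392) and ApcMin/+; p16cis/cis replicate 3 (3537). Its log2 fold change was -1.54 with a standard error of 0.39 (limma, adjusted p = 0.0207). The adjusted p was 0.0501 without ApcMin/+ replicate 3 and 0.0600 without ApcMin/+; p16cis/cis replicate 2. The difference itself was -1.48 and -1.49 in these fits.

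With the mitochondrial share of each library as a covariate, 0 genes passed by limma, 798 having an unadjusted p under 0.05. The log2 fold changes were -0.54 for Slc26a3 (limma, adjusted p = 0.876) and -1.43 for Slc9a3 (adjusted p = 0.848). With libraries scaled to their reads on nuclear genes alone, which leaves mitochondrial reads out of the scale, both exchangers were called lower. The main scale was already close to this one, with log2 fold changes of -1.23 and -1.22 for Slc26a3 and -1.54 and -1.53 for Slc9a3. This fit therefore does not test differences between libraries that go with the mitochondrial share.

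The 250 bases before the RefSeq starts of the 2 exchangers (GRCm38.p6) are shown because both genes were lower together. The window of Slc26a3 lies at chr12:31437969-31438218 and that of Slc9a3 at chr13:74121163-74121412, both on the plus strand, 5′ to 3′. A further protein-coding transcript of Slc26a3 starts upstream, at 31390871, and the bases before that start are not shown. Capitals mark matches to the motifs searched.
Slc26a3: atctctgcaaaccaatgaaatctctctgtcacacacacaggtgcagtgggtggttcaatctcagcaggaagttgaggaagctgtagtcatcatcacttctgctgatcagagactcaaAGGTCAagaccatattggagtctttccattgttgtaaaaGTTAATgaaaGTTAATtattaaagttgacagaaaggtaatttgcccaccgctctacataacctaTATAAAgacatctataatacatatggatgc
Slc9a3: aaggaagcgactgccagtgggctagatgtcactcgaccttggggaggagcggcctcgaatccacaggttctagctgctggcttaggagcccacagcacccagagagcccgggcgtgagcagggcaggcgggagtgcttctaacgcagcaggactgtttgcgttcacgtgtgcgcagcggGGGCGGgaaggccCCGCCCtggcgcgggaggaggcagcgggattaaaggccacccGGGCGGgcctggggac
These windows look unlike each other. The Slc26a3 window had a GC content of 38.8% and a TATA box (TATAAA) at -30, counted back from the start to the leftmost base of the match. It also had HNF1 letters (GTTAAT) at -94 and -84 and nuclear receptor letters (AGGTCA) at -133. The Slc9a3 window had a GC content of 67.6%, no TATA box, and GC boxes (GGGCGG on either strand) at -71, -58 and -16.

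Of 10 transport genes 7 matched a RefSeq window, all but Car1, Scnn1a and Slc12a2. The search on both strands also covered the letters TTTATNG of CDX factors. It further covered AGATAA of GATA factors. Steroid receptor letters were AGAACA. The CDX letters on the other strand, CNATAAA, can share bases with a TATA box. In 32851 RefSeq windows of this length, 12.4% held the TATA box, 32.7% the GC box, 6.43% the HNF1 letters, 14.02% the nuclear receptor letters, 9.81% the CDX letters, 9.99% the GATA letters and 16.1% the steroid receptor letters. Of the 7 windows, the TATA box and the HNF1 letters were each in 1, the GC box in 4 and the nuclear receptor letters in 2, while the CDX, GATA and steroid receptor letters were not in these 7. The motifs were chosen with the expression values known, and a match of letters is a description of the window.

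Car1 and Car4 are carbonic anhydrases, Car1 in the cytosol and Car4 on the outer face of the apical membrane. Car1 (ENSMUSG00000027556.15, chr3:14766216-14808368, minus strand) had normalized counts of 75414, 74909, 65000, 165058 and 82124 in ApcMin/+ mice and of 55919, 68015, 40120 and 40059 in ApcMin/+; p16cis/cis mice. ApcMin/+ replicate 4 was far above all other mice, and the genotypes overlapped only where ApcMin/+; p16cis/cis replicate 2 exceeded ApcMin/+ replicate 3. The log2 fold change of -0.81, with a standard error of 0.29, did not pass the test (limma, adjusted p = 0.0750), and DESeq2's Wald test gave an adjusted p of 0.00852. Without ApcMin/+ replicate 4 the limma adjusted p was 0.0629.

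Car4 (ENSMUSG00000000805.18, chr11:84957786-84966044, plus strand) had 9526, 8464, 13725, 15355 and 9125 normalized counts in ApcMin/+ mice and 4513, 5797, 11178 and 15084 in ApcMin/+; p16cis/cis mice. The second group fell into low values in replicates 1 and 2, below every ApcMin/+ mouse, and higher values in replicate 3, within the ApcMin/+ range, and in replicate 4, near the highest ApcMin/+ mouse. Its log2 fold change was -0.42 with a standard error of 0.32 (limma, adjusted p = 0.392).

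Aqp8 (ENSMUSG00000030762.11, chr7:123462291-123468004, plus strand) encodes a water channel of surface colonocytes. It had 3303, 3974, 10849, 7976 and 3439 normalized counts in ApcMin/+ mice and 1836, 2461, 3929 and 5885 in ApcMin/+; p16cis/cis mice. Values spread widely within both genotypes and overlapped. On the log2 scale the difference was -0.71 with a standard error of 0.40 (limma, adjusted p = 0.238). With the replicate number as a block, a pairing that the labels do not support with shared animals, the log2 fold change was -0.86 and the adjusted p was 0.0153.

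ENaC is built of an α, a β and a γ subunit, encoded by Scnn1a, Scnn1b and Scnn1g, and all are needed for full current. Compared per length, as reads per kilobase of exon scaled to the reads on nuclear genes (RPKM), the subunits were far from equal. In ApcMin/+ mice Scnn1a was at 59.3 ± 14.2, Scnn1b at 9.62 ± 5.50 and Scnn1g at 3.38 ± 2.81 (SD, n = 5). In ApcMin/+; p16cis/cis mice the levels were 66.8 ± 16.3, 5.79 ± 1.22 and 0.984 ± 0.650 (n = 4). Scnn1a was the member with a positive log2 fold change, and Scnn1g rested on few reads, 17 to 292 per library.

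Scnn1a (ENSMUSG00000030340.16, chr6:125320659-125344943, plus strand) had 3830, 3158, 3728, 6128 and 3019 normalized counts in ApcMin/+ mice and 3747, 3055, 6059 and 4866 in ApcMin/+; p16cis/cis mice. The ranges were nearly the same. Scnn1a had a log2 fold change of 0.16 with a standard error of 0.23 (limma, adjusted p = 0.665) and a 95% interval of -0.33 to 0.65. It changed sign, to -0.05, when libraries were scaled to their total on all genes, and to -0.01 without ApcMin/+; p16cis/cis replicate 3.

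Scnn1b (ENSMUSG00000030873.9, chr7:121865038-121918514) and Scnn1g (ENSMUSG00000000216.8, chr7:121734479-121768475) are neighbors on the plus strand, 96562 bp apart, and Aqp8 lies 1543776 bp beyond Scnn1b. Scnn1b had 540, 215, 314, 822 and 191 normalized counts in ApcMin/+ mice and 254, 211, 319 and 188 in ApcMin/+; p16cis/cis mice. Scnn1g had 326, 78.9, 65.4, 318 and 43.1 in ApcMin/+ mice and 21.5, 44.7, 96.2 and 28.2 in ApcMin/+; p16cis/cis mice. For both genes ApcMin/+ replicates 1 and 4 were above all other mice, and the remaining ApcMin/+ mice lay within or near the range of the other genotype. Neither passed the test, with a log2 fold change of -0.58 and a standard error of 0.38 for Scnn1b (limma, adjusted p = 0.310). For Scnn1g the log2 fold change was -1.53 with a standard error of 0.63 (limma, adjusted p = 0.109), as large as that of Slc9a3 but with more spread.

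The windows of these neighbors, at chr7:121734229-121734478 for Scnn1g and chr7:121864788-121865037 for Scnn1b, are shown because the 2 genes were high in the same mice.
Scnn1g: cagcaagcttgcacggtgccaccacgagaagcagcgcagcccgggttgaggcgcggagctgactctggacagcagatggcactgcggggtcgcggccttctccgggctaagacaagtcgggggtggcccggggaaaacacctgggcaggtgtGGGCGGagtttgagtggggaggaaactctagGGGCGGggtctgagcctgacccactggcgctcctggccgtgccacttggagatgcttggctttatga
Scnn1b: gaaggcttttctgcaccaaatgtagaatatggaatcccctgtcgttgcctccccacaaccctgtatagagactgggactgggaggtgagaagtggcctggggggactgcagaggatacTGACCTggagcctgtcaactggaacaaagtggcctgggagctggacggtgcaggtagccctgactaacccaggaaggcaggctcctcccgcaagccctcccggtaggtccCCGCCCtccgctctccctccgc
The Scnn1g window had a GC content of 65.2% with GC boxes at -98 and -67. The Scnn1b window had a GC content of 60.8%, a GC box on the other strand at -22 and the nuclear receptor letters on the other strand at -132.

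Cftr and Slc12a2 serve secretion. Cftr (ENSMUSG00000041301.15, chr6:18170687-18322768, plus strand), the apical Cl- channel, had 2706, 3262, 3045, 2691 and 3320 normalized counts in ApcMin/+ mice and 3002, 2930, 2487 and 2160 in ApcMin/+; p16cis/cis mice. Its standard error was the smallest among the 10 genes, and the genotypes overlapped. Cftr had a log2 fold change of -0.19 with a standard error of 0.12 (limma, adjusted p = 0.298), and its 95% interval of -0.45 to 0.07 does not reach the values of Slc26a3 or Slc9a3. An antisense gene that overlaps Cftr exons, Gm15592, had at most 4.79 normalized counts in any mouse, and whether counting used strand is not given.

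Slc12a2 (ENSMUSG00000024597.10, chr18:57878678-57946821, plus strand), which encodes NKCC1, had 10045, 8851, 7288, 5957 and 9280 normalized counts in ApcMin/+ mice and 6910, 6905, 6711 and 5116 in ApcMin/+; p16cis/cis mice. ApcMin/+ replicate 4, the highest mouse for 5 of the 10 genes, was the lowest of its genotype here. The log2 fold change was -0.36 with a standard error of 0.16 (limma, adjusted p = 0.146). Without that mouse it was -0.47 (adjusted p = 0.0259), and the count of transport genes called lower went from 2 to 3.

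**Figure D2:**
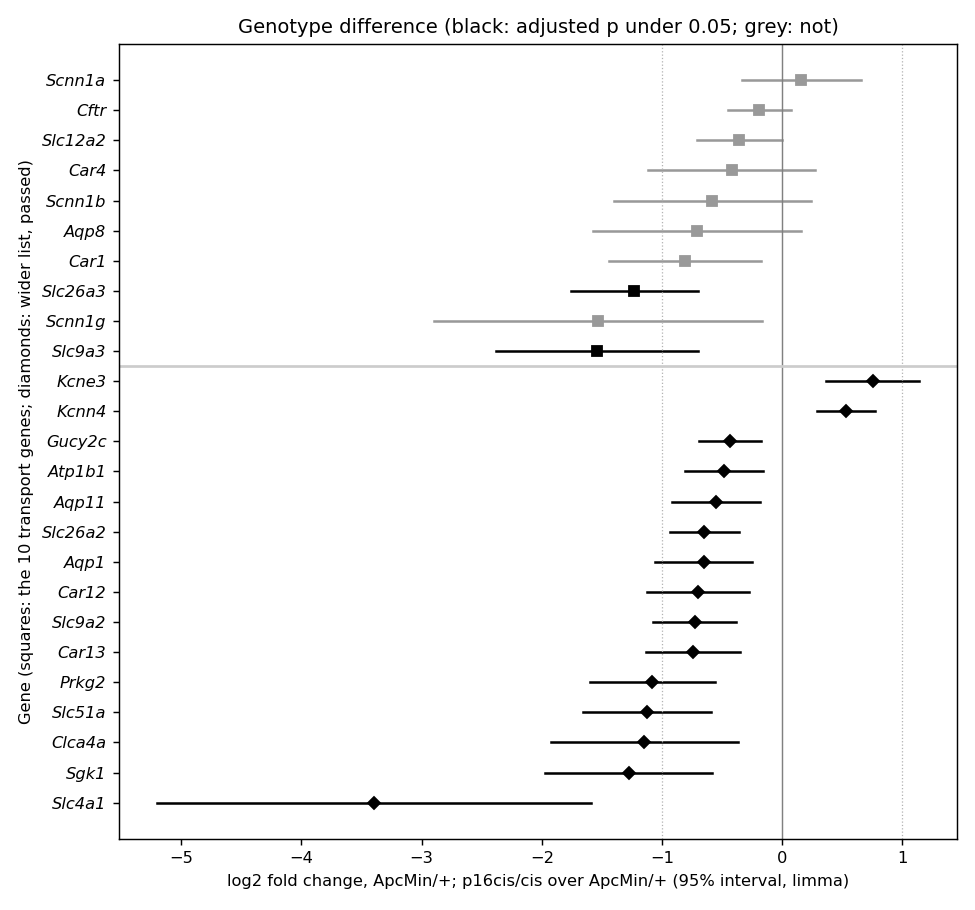
Log2 fold change of ApcMin/+; p16cis/cis over ApcMin/+ mice (x axis) with its 95% limma interval, for the 10 transport genes (squares) and the 15 genes of the wider transport lists that passed the test (diamonds). Black marks an adjusted p under 0.05, dotted lines mark a fold of 2, and all but Kcne3 and Kcnn4 of the black points lie left of 0.

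Levels per length ordered the 10 genes over a wide range. Car1 stood first, at 4555 ± 1657 RPKM in ApcMin/+ mice (SD, n = 5) and 2603 ± 819 in ApcMin/+; p16cis/cis mice (n = 4), above every other gene in every mouse. In ApcMin/+ mice it was followed by Car4 (354 ± 78.1), Aqp8 (231 ± 127), Slc26a3 (102 ± 28.1), Slc9a3 (65.3 ± 30.0), Scnn1a, Slc12a2 (47.9 ± 11.4), Cftr (24.3 ± 3.63), Scnn1b and Scnn1g. From Car4 down to Slc12a2 the neighbors in this order overlapped between mice of that genotype, as did Scnn1b and Scnn1g. In ApcMin/+; p16cis/cis mice, Scnn1a (66.8 ± 16.3) stood above Slc26a3 (43.9 ± 13.6) and Slc9a3 (23.1 ± 11.3) by mean.

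Both called exchangers were lower by mean among females and among males. Among females, Slc26a3 was at 9191 and 6724 normalized counts in ApcMin/+ mice and 2981, 5088 and 6399 in ApcMin/+; p16cis/cis mice. The only ApcMin/+; p16cis/cis male, replicate 1, had 3488, against 10028 to 14071 in the 3 ApcMin/+ males. Among the 5 females alone, the log2 fold change was -0.77 for Slc26a3 (limma, adjusted p = 0.135) and -0.71 for Slc9a3 (adjusted p = 0.147), so the calls did not hold in females alone. This smaller fit called 898 of all genes, against 2434 with all 9 mice. With sex as a covariate in all 9 mice, both were called lower. The log2 fold changes were -1.16 for Slc26a3 (limma, adjusted p = 0.0241) and -1.55 for Slc9a3 (adjusted p = 0.0440).

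Aqp8 and Car4 differed in sign between the sexes. In females Aqp8 was at 3303 and 3439 in ApcMin/+ mice and 2461, 3929 and 5885 in ApcMin/+; p16cis/cis mice, a log2 fold change of 0.19. In males it was at 3974, 10849 and 7976 against 1836. The log2 fold change of Car4 in females was 0.09. The interaction of sex and genotype, males minus females, was -2.17 for Slc9a3 and -2.12 for Aqp8 on the log2 scale, with limma adjusted p = 0.722 for both. It passed in 0 of all genes tested. At an unadjusted p under 0.05 were 3 of the 10 transport genes (Slc9a3, Aqp8 and Car4) by limma, against 6.79% of all genes tested, and 3 by edgeR. The male difference rests on 1 ApcMin/+; p16cis/cis mouse, the lowest of all 9 for these genes, so it has no replicate.

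**Figure D3:**
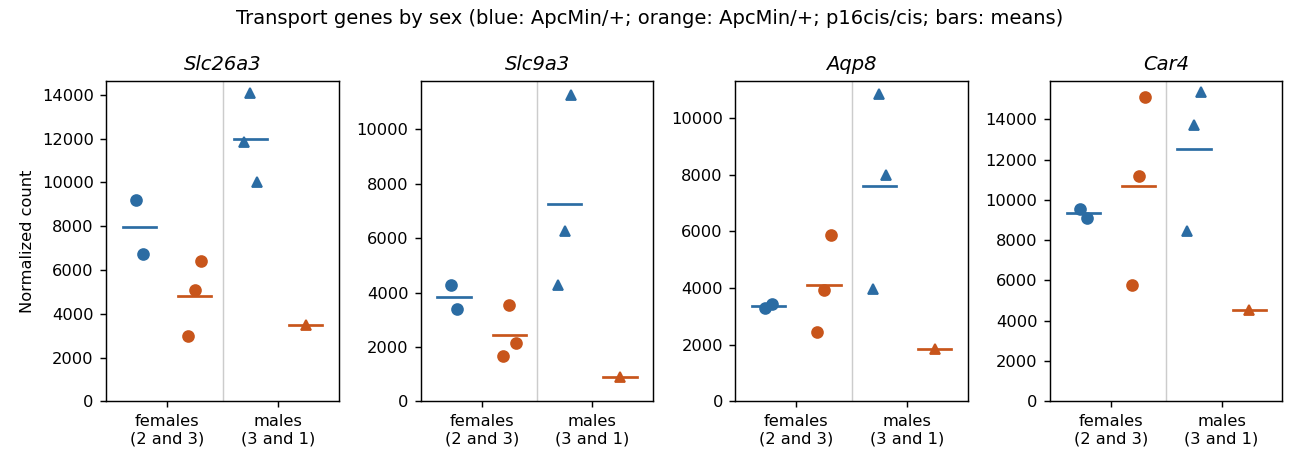
Normalized counts (y axis, from 0) of Slc26a3, Slc9a3, Aqp8 and Car4 by sex, with ApcMin/+ in blue (2 females, 3 males) and ApcMin/+; p16cis/cis in orange (3 females, 1 male), each point 1 mouse and bars the means, a single mouse having its own value as bar. The male ApcMin/+; p16cis/cis mouse is the lowest of all 9 for Slc9a3, Aqp8 and Car4, at 908, 1836 and 4513.

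Transport differs along the colon, ENaC being a distal feature, so the transport genes were set beside posterior Hox genes, which keep a record of position along the body axis. Of 10 posterior Hox genes 8 could be tested. Hoxd10 (log2 fold change 1.35, standard error 0.39, adjusted p = 0.0341) and Hoxa10 (0.43, 0.12, adjusted p = 0.0296) were called higher in ApcMin/+; p16cis/cis mice by limma. All 8 log2 fold changes were positive, with a median of 0.58, but those of Hoxa13 (0.01) and Hoxa11 (0.19) changed sign with the scaling. The calls held under 11 of 22 alternatives for Hoxd10 and 13 of 22 for Hoxa10. With sex as a covariate neither passed, with 1.09 for Hoxd10 (limma, adjusted p = 0.0807) and 0.43 for Hoxa10 (adjusted p = 0.0665). Among females alone the log2 fold changes were 0.06 for Hoxd13, 0.08 for Hoxd12, -0.01 for Hoxd11 and 0.56 for Hoxd10. In the same fit Hoxb13 was at 0.45, Hoxa10 at 0.42, Hoxa11 at 0.61 and Hoxa13 at 0.01. Hoxb13, the most posterior gene of its cluster, had 6824, 4609, 4858, 8869 and 4578 normalized counts in ApcMin/+ mice and 8270, 6736, 7746 and 8466 in ApcMin/+; p16cis/cis mice. Hoxd13 had 2377, 915, 669, 1100 and 1162 in ApcMin/+ mice and 2640, 1380, 1746 and 2151 in ApcMin/+; p16cis/cis mice.

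ApcMin/+ replicates 1 and 4, which had the most Scnn1b and Scnn1g, had the most Hoxb13 of their genotype. The ApcMin/+; p16cis/cis mice reached a Hoxb13 level near that of these mice, while their Scnn1b stayed at 188 to 319, below the 540 and 822 of the 2 ApcMin/+ mice. This comparison was chosen after the values were seen and carries no test. The mean log2 level of the 8 Hox genes was 8.96, 8.14, 7.97, 8.44 and 8.33 in ApcMin/+ mice. In the other genotype it ran from 8.73 (replicate 2) to 9.15 (replicate 1), and only ApcMin/+ replicate 1 lay among those values.

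Across the 9 mice the relation of each of the 10 transport genes to this Hox level was tested by exact permutation of Pearson's r and Spearman's rho, with Benjamini-Hochberg adjustment over the 10. None passed, and 1 had an unadjusted Pearson p under 0.05. This was Slc26a3, with r = -0.69 (exact permutation p = 0.0432, adjusted 0.251) and rho = -0.75 (exact permutation p = 0.0255, adjusted 0.252). Without the 2 mice farthest from the median Hox level, ApcMin/+ replicates 2 and 3, r was -0.37. Leaving these out narrows the range of Hox levels, so the smaller r does not show that the relation rests on them. With each mouse left out in turn, r of Slc26a3 was -0.80 to -0.57. For Scnn1b r was -0.00 and for Scnn1g -0.16. Genotype and Hox level go together in these mice, and groups of 5 and 4 are too small for a correlation within a genotype.

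**Figure D4:**
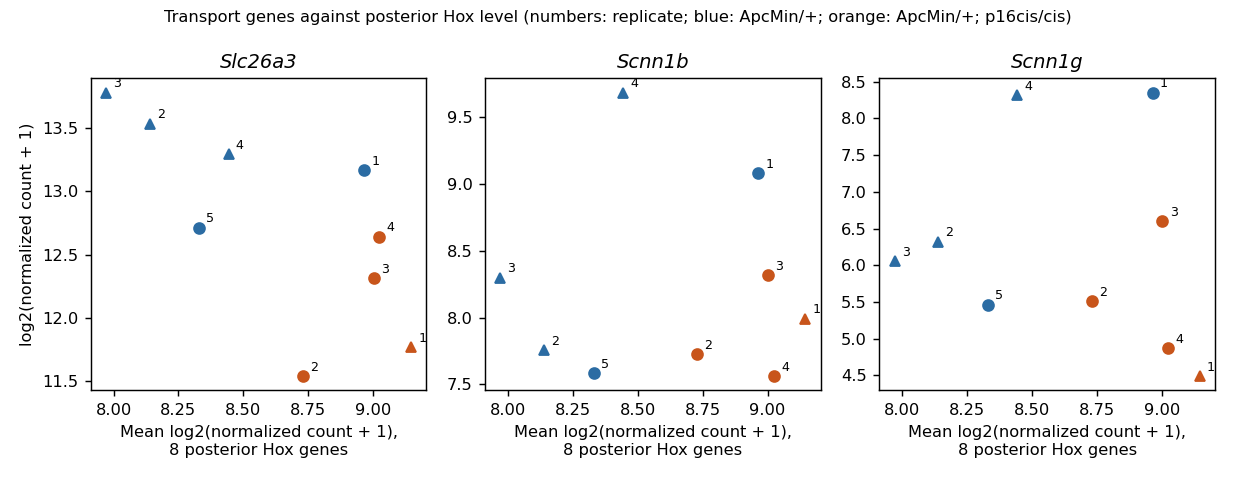
Log2(normalized count + 1) of Slc26a3, Scnn1b and Scnn1g (y axis) against the mean log2 level of 8 posterior Hox genes (x axis) in 9 mice, ApcMin/+ in blue and ApcMin/+; p16cis/cis in orange, circles for females, triangles for males, each point with its replicate number. For Slc26a3 r was -0.69, which did not pass (exact permutation, adjusted p = 0.251), and the mice with the lowest Hox levels were all ApcMin/+. Scnn1b and Scnn1g peak in ApcMin/+ replicates 1 and 4.

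Genes of the small intestine, a further list of position, were also counted. Of 6 listed, 4 could be tested. All 4 had a negative log2 fold change (median -0.96), and 2 were called lower, against 8.75% of all genes tested. Without overlap of genotypes was 1 of these genes, against 8.95% of all genes tested that were lower in this way. The summed level of the list was 5865 to 13330 normalized counts in ApcMin/+ mice, highest in replicate 4, and 3171 to 5818 in ApcMin/+; p16cis/cis mice. These sums did not overlap, although the nearest values, 5865 and 5818, were close. The part of these genes in the results on transport genes was not tested.

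Among genes taken as proximal colon genes, Mptx1, a mucosal pentraxin, was called higher, with a log2 fold change of 2.08 (limma, adjusted p = 0.0367). Ang4, a Paneth and goblet cell ribonuclease, ran from 29.3 to 18151 normalized counts in ApcMin/+ mice and from 5747 to 45249 in ApcMin/+; p16cis/cis mice (adjusted p = 0.0532). Within ApcMin/+ mice Ang4 was at 57.1, 29.3 and 34.3 in males and at 3609 and 18151 in females. Mptx1 was at 17340, 13427 and 8405 in these males and at 37541 and 99705 in these females. The sexes are unequal between the genotypes. With sex as a covariate the log2 fold changes were 1.48 for Mptx1 (limma, adjusted p = 0.0550) and 3.42 for Ang4 (adjusted p = 0.0577). The call of Mptx1 held under 12 of 22 alternatives. Cd177 had a log2 fold change of 0.18 (adjusted p = 0.737).

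A wider set of 62 genes of transport and its regulation held 56 that could be tested. By limma 13 were called lower and 2 higher, against 8.75% and 8.14% of all genes tested. The log2 fold change was negative in 42 and positive in 14, with a median of -0.21, while 50.4% of all genes tested were negative. Past a fold of 2, 5 were lower (1.64% of all genes) and 0 higher (1.83%), and 10 of the 56 were lower with no overlap of genotypes (8.95%). Lower genes were spread over all groups but the K+ channels, where 2 of 6 were higher.

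In the group of apical Na+, Cl- and HCO3- exchange, 10 further genes were tested, of which 3 were called lower, 7 had a negative log2 fold change and 3 a positive one. Slc26a2, a sulfate transporter, had 12962, 15537, 14476, 14202 and 11812 normalized counts in ApcMin/+ mice and 9942, 7141, 9540 and 8719 in ApcMin/+; p16cis/cis mice. Slc9a2, the second apical Na+/H+ exchanger (NHE2), had 4669, 4318, 6246, 7279 and 4737 against 2893, 3023, 3805 and 3232. Neither overlapped between genotypes, and the log2 fold changes were -0.65 (standard error 0.13, limma adjusted p = 0.00909) and -0.73 (0.16, 0.0115). Slc4a1, the anion exchanger known from red blood cells, was low throughout, at 8.90 to 84.9 in ApcMin/+ mice and 0 to 17.2 in ApcMin/+; p16cis/cis mice (log2 fold change -3.40, adjusted p = 0.0185). Slc9a3r1, the scaffold NHERF1 that binds NHE3, had a log2 fold change of -0.20 (adjusted p = 0.515), and the apical anion exchanger Slc26a6 one of 0.46 (adjusted p = 0.540).

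Of 7 further carbonic anhydrases tested, all had negative log2 fold changes and 2 were called lower. Car13 was at -0.74 (standard error 0.18, limma adjusted p = 0.0184) and Car12, a membrane-bound form of the basolateral side, at -0.70 (0.19, 0.0294). Car12 ran from 1154 to 1810 normalized counts in ApcMin/+ mice and from 570 to 1118 in ApcMin/+; p16cis/cis mice. Car2, the main cytosolic form beside Car1, did not pass, with -0.42 (adjusted p = 0.111).

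Among pump genes, Atp1b1, the β subunit of the Na+/K+ pump that drives Na+ out at the basolateral side, was called lower. It had 32248, 30756, 27912, 35199 and 27887 normalized counts in ApcMin/+ mice and 22825, 19659, 26790 and 19334 in ApcMin/+; p16cis/cis mice, without overlap. Its log2 fold change was -0.48 with a standard error of 0.15 (limma, adjusted p = 0.0443). Fxyd4, a pump regulator, had 2049 normalized counts in ApcMin/+ replicate 4 and 171 to 519 in the other ApcMin/+ mice, against 299 to 535 in ApcMin/+; p16cis/cis mice.

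The 2 genes called higher encode K+ channel parts that accompany Cl- secretion. Kcne3, the partner subunit of the channel KCNQ1, had 4340, 4288, 3614, 2634 and 4899 normalized counts in ApcMin/+ mice and 5599, 8392, 5999 and 6431 in ApcMin/+; p16cis/cis mice. Kcnn4, a Ca2+-activated K+ channel, had 1677, 1713, 1644, 1373 and 1342 against 1938, 2323, 2355 and 2323. Every ApcMin/+; p16cis/cis mouse was above every ApcMin/+ mouse for both. Separation of the genotypes was common, in 2333 of all 14410 genes tested and 12 of the 56 wider genes, counting either direction. The log2 fold changes were 0.75 (standard error 0.18, limma adjusted p = 0.0162) and 0.53 (0.11, 0.00993). With libraries scaled to their total on all genes, the values were 0.55 (adjusted p = 0.0572) and 0.33 (adjusted p = 0.0774). Kcnq1 itself had 0.30 (adjusted p = 0.115), and the Cl- channel Ano1 0.17 (adjusted p = 0.268).

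Hormonal control was represented by aldosterone and guanylin. Sgk1, the kinase induced by aldosterone that keeps ENaC in the membrane, had 3078, 4826, 4987, 9226 and 4018 normalized counts in ApcMin/+ mice and 1030, 2477, 2561 and 2486 in ApcMin/+; p16cis/cis mice. The genotypes did not overlap, and the log2 fold change was -1.28 with a standard error of 0.32 (limma, adjusted p = 0.0207). With sex as a covariate Sgk1 was at -1.28 (limma, adjusted p = 0.0441), and among females alone at -0.49 (adjusted p = 0.0868). Its lowest value, 1030, was that of the only ApcMin/+; p16cis/cis male. The mineralocorticoid receptor gene Nr3c2 had -0.31 (adjusted p = 0.0618) and Hsd11b2, which protects that receptor from glucocorticoids, -0.57 (adjusted p = 0.0833).

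Prkg2, the cGMP-dependent kinase downstream of guanylin, had 882, 509, 633, 742 and 564 normalized counts in ApcMin/+ mice and 297, 488, 325 and 193 in ApcMin/+; p16cis/cis mice. The guanylin receptor gene Gucy2c had 5775, 6441, 6283, 7842 and 6520 against 5306, 4505, 5407 and 4219. Both were separated, with log2 fold changes of -1.08 (standard error 0.24, limma adjusted p = 0.0124) and -0.44 (0.12, 0.0278). The genes of the peptides themselves, Guca2a and Guca2b, had -0.17 (adjusted p = 0.750) and 0.33 (adjusted p = 0.379).

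Further called genes were Slc51a, the α subunit of the basolateral organic solute and bile acid exporter (log2 fold change -1.12, standard error 0.24, limma adjusted p = 0.0116), and Clca4a (-1.15, 0.36, 0.0466). Slc51a ran from 1604 to 4115 normalized counts in ApcMin/+ mice and from 785 to 1410 in ApcMin/+; p16cis/cis mice. The β subunit gene Slc51b had -0.04 (adjusted p = 0.929). Among water channels, Aqp1 (-0.65, 0.19, 0.0328) and Aqp11 (-0.55, 0.17, 0.0431) were lower, and Aqp4 had -0.36 (adjusted p = 0.217). Of the calls in this wider set, those of Atp1b1, Clca4a, Aqp11, Gucy2c, Car12 and Aqp1 held least often, under 10 to 14 of 22 alternatives. Aqp3 did not pass the filter. It was listed at 0 in the 4 ApcMin/+; p16cis/cis mice and in ApcMin/+ replicate 1, and at 2.27 to 58.5 in the other ApcMin/+ mice.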

How the data were processed

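RNA-seq of colonic mucosa from 9 mice, 5 ApcMin/+ and 4 ApcMin/+; p16cis/cis, was used, 1 library per mouse. Reads were aligned with BOWTIE2 and gene levels computed with RSEM, per the study's methods. Genome build, annotation, strand and versions were not given in the sources used here. The authors deposited normalized counts, a signal scaled by a size factor per mouse. Dividing by the value of 1 read gave whole reads (within 0.01) for 100% of positive values. Library totals were 13523500 to 17885918, so a count of 0 allows up to 3 reads of a total. Such limits cover counting error only.

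Genes with at least 10 in at least 4 mice (14410 of 54146) were tested with limma 3.58.1 (R 4.3.3, trended variance) on log2(normalized count + 1), genotype the only term, Benjamini-Hochberg over all genes. A fold change on this scale understates the change of low genes. Count tests on these reads (edgeR 4.0.16, DESeq2 1.42.0), other scalings, filters, pseudocounts, covariates and each mouse left out were alternatives. The procedure was tested on simulated data, where 94% of 200 genes changed by 2 on the log2 scale were called among 14410. That change is larger than any fitted for the 10 transport genes, so the 94% does not tell how often changes of their size are called. Positions, exon lengths and overlaps come from GENCODE M21 (GRCm38), promoter windows from RefSeq (GRCm38.p6). Protein sequences were not used here.

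Named genes are the 10 transport genes, all wider transport genes that passed, and the posterior Hox and proximal colon genes tested, apart from some genes that are not reported here. Wider transport genes named with an adjusted p above 0.05, and Fxyd4, Aqp3 and Gm15592, were chosen after their values were seen. The transport genes and all lists were chosen with earlier results of these data known. The labels number the mice within each genotype. Same-numbered mice are different animals, and their deviations from the group means correlated by 0.02 on average, so numbers were not used as pairs. The labels do not tell whether mice shared a litter or cage.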

Additional observations from a re-analysis of the deposited data

Results flagged for a closer look

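In 74 sets of values (1 gene in 1 genotype) the highest or lowest mouse was checked for a gap to its nearest neighbor above Dixon's 95% critical value. Past it were 13, against 3.7 at 1 in 20. That rate holds for independent values with a normal distribution. These are normalized counts, not on a log scale, of genes in the same mice, so 3.7 is a rough guide only.

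Among the transport genes, ApcMin/+ replicate 4 stood apart for Car1 (165058 normalized counts, the others at most 82124) and for Scnn1a (6128, the others at most 3830). ApcMin/+; p16cis/cis replicate 4 stood apart for Slc12a2 (5116, the others at least 6711). Among the wider transport genes, ApcMin/+; p16cis/cis replicate 1 was low for Sgk1 (1030, the others at least 2477) and for Kcnn4 (1938, the others at least 2323). ApcMin/+ replicate 1 was low for Car13 (694, the others at least 890).

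Among the genes of position, ApcMin/+ replicate 1 was high for Hoxd13 (2377, the others at most 1162) and for Hoxd12 (242, the others at most 90.3). ApcMin/+; p16cis/cis replicate 1 was high for Hoxd11 (150.3, the others at most 108). ApcMin/+; p16cis/cis replicate 4 was high for Ang4 (45249, the others at most 10664) and for Mptx1 (208943, the others at most 86165). ApcMin/+ replicate 5 was high for Ang4 (18151, the others at most 3609), and ApcMin/+ replicate 4 was low for Cd177 (4519, the others at least 9280).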

How the results depend on the processing

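Slc26a3 was called lower under 20 of 22 alternatives and Slc9a3 under 18 of 22. With the mitochondrial share as a covariate, no gene, and so 0 transport genes and 0 of the wider list, passed by limma (798 genes at an unadjusted p under 0.05), with log2 fold changes of -0.54 for Slc26a3 (adjusted p = 0.876) and -1.43 for Slc9a3 (adjusted p = 0.848). Scaling to the total on nuclear genes changed no call of the 10. Females only gave 898 genes, 0 transport genes and 3 wider genes, and positive log2 fold changes for Aqp8 (0.19) and Car4 (0.090) and -0.013 for Hoxd11. Sex as a covariate gave 1437 genes in place of 2434. Scaling to the total on all genes moved the median of all genes to -0.21 and gave 5 transport genes (Car1, Scnn1g and Slc12a2 added) and 24 wider genes, all lower. Under it Scnn1a was at -0.047, Hoxa13 at -0.19, Hoxa11 at -0.0087 and Cd177 at -0.023. Cd177 was at -0.043 with sex and at -0.10 with the mitochondrial share as a covariate, Ang4 was at -1.37 with the latter, and Hoxa13 at -0.0032 by edgeR. With Hoxd13 and Hoxb13 alone as the measure, r of Scnn1b was 0.15. Leaving out each mouse in turn gave 1183 to 3488 genes, 1 to 3 transport genes and 8 to 17 wider genes. The 1 transport gene left without ApcMin/+ replicate 3 or without ApcMin/+; p16cis/cis replicate 2 was Slc26a3. Wider genes numbered 8 without either of these mice in turn and 9 without ApcMin/+; p16cis/cis replicate 4, and genes 1287, 1257 and 1183. Without ApcMin/+ replicate 2 there were 1353 genes. The ranges were -0.0077 to 0.33 for Scnn1a, -0.072 to 0.081 for Hoxa13, -0.073 to 0.34 for Hoxa11 and -0.080 to 0.47 for Cd177. With the replicate block Hoxa13 was at -0.072 and Aqp8 at -0.86 (adjusted p = 0.0153), and no other call of the 10 changed. Same-numbered mice correlated at -0.18, 0.07, 0.05 and 0.14. The causes of these changes were not tested. With 17 to 292 reads per library, depth limits Scnn1g.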
